A study of Danio rerio with 6 samples.

Results

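The genes described here encode liver plasma proteins, the proteins that hepatocytes secrete into blood, in 3 groups by role: carriers and inhibitors, coagulation, and complement. They were a fixed list of 55 zebrafish symbols, matched without regard to case to the Ensembl gene IDs of a count table from larvae at 72 hours post-fertilization (hpf). Of these, 46 symbols matched 48 of the 32520 gene IDs in the table, since the name F7 is carried by 3 IDs, and 9 symbols matched none. The matching used no expression value, but the list was chosen with earlier results of these data known. They were read in 3 libraries of miR-34a-/- embryos and 3 libraries of wild-type embryos, all untreated, at 72 hpf and in the casper background, which lacks most pigment. The mutants carry a CRISPR/Cas9 deletion of miR-34a, a microRNA gene that p53 switches on. Per the study's text the line was kept as homozygous fish, so mutants and wild types had different parents, and line and genotype cannot be told apart. Each library held poly-A RNA of whole embryos, in pools of 30 per the study's methods.

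The liver of the zebrafish larva secretes most proteins of the plasma. Carriers such as transferrin bind iron, hormones, vitamins or heme, and serpins and other inhibitors block proteases. Coagulation is a chain of serine proteases that are made as inactive precursors. It ends when thrombin cuts fibrinogen to fibrin, and plasmin later dissolves the clot. Complement is a similar chain that marks microbes. Its classical, lectin and alternative routes converge on the cutting of C3, and the terminal components C5 to C9 then assemble into a pore in the target membrane. Levels below are in CPM, counts on a scale common to all libraries (counts over the scaled library size), and a log2 fold change is miR-34a-/- over wild-type. "Passed the test" means a Benjamini-Hochberg adjusted p below 0.05 over all 19240 genes tested, from edgeR's quasi-likelihood fit. Some counts below are of IDs with an unadjusted p below 0.05, or of IDs that passed in a second tool, DESeq2. The shares of all genes that did so are not given, so no excess is read from these counts.

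Total counts per library ran from 10507151 to 16369150 in miR-34a-/- and from 10273343 to 15856562 in wild-type libraries, where 3 counts correspond to 0.186 to 0.293 CPM. MIR34A had 0 counts in each library, which allows up to 3 counts, so the labels could not be checked on the deleted gene in poly-A RNA. Over the 500 most variable genes, miR-34a-/- replicate 1 stood apart from its group, at a distance of 1.33 and 1.57 on the log2 scale from replicates 2 and 3, which were 0.866 apart. Wild-type libraries were 0.726 to 0.818 apart, and libraries of different genotype 1.64 to 2.08. Nothing in the labels says that replicates came from separate clutches, so p-values measure the spread between these pools, which may be technical. The median log2 fold change of the 19240 genes was -0.01.

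Liver transcripts were present in each library. The liver markers used as a check were fabp10a, hnf4a, cebpa, prox1a, foxa3, tat, cps1 and uox, of which 7 matched an ID and all 7 passed the filter on low counts. Their summed level was 112.8, 150.6 and 150.2 CPM in miR-34a-/- and 116, 105.6 and 97.5 CPM in wild-type libraries. fabp10a, the liver fatty acid binding protein of the larva, had 10.9, 20.4 and 21.9 CPM in miR-34a-/- and 12.8, 11.4 and 8.55 CPM in wild-type embryos, and its difference did not pass the test (edgeR adjusted p = 0.212). In both measures miR-34a-/- replicate 1 lay among the wild-type libraries and replicates 2 and 3 above them. In whole embryos, fewer cells of a type and less RNA per cell cannot be told apart.

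Of the 48 IDs, 43 passed the filter on low counts, and none of them reached the filter's level in only 1 genotype. The other 5 were near the detection limit and were not tested. serpina7, a serpin of the hormone carrier family, had 3, 0 and 0 counts in miR-34a-/- and 0, 1 and 0 in wild-type libraries. hp, the hemoglobin binder haptoglobin, had 0 counts in each miR-34a-/- library and 0, 0 and 1 in wild-type libraries. TTR, the thyroid hormone carrier transthyretin, had 4, 10 and 13 counts in miR-34a-/- and 4, 2 and 0 in wild-type libraries. f9a, for coagulation factor IX, had 4, 1 and 5 counts in miR-34a-/- and 4, 0 and 1 in wild-type libraries. c4, a copy of complement C4, had 3, 6 and 5 counts in miR-34a-/- and 3, 3 and 0 in wild-type libraries. No difference is read from counts this low. The 9 symbols without an ID were itih3a, itih3b, vtna, vtnb, f7i, f9b, proca, c6 and cfi.

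Among the 43 tested IDs, 10 passed the test, 9 of them lower and 1 higher in miR-34a-/- embryos. Across all genes tested, 2.60% passed in either direction, 1.27% lower and 1.33% higher. Complement held 6 of the 10, carriers and inhibitors 3 and coagulation 1. With a further threshold of 1.5-fold, which 1.88% of all genes met, 4 of the 43 were called: agt, cfb and c8b lower, and F10 higher. That number was 2 without wild-type replicate 2 and 2 without wild-type replicate 3. Of all genes tested, 191 and 181 were called in these fits, against 362 with all libraries. The fitted log2 fold change was below 0 for 32 of the 43, or 74.4%, with a median of -0.17 and a range of -2.07 to 1.15, whereas 51.9% of all genes tested lay below 0. All 3 miR-34a-/- libraries lay below all 3 wild-type libraries for 19 IDs and above them for 3, against 10.2% and 11.0% of all genes tested.

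**Figure D1:**
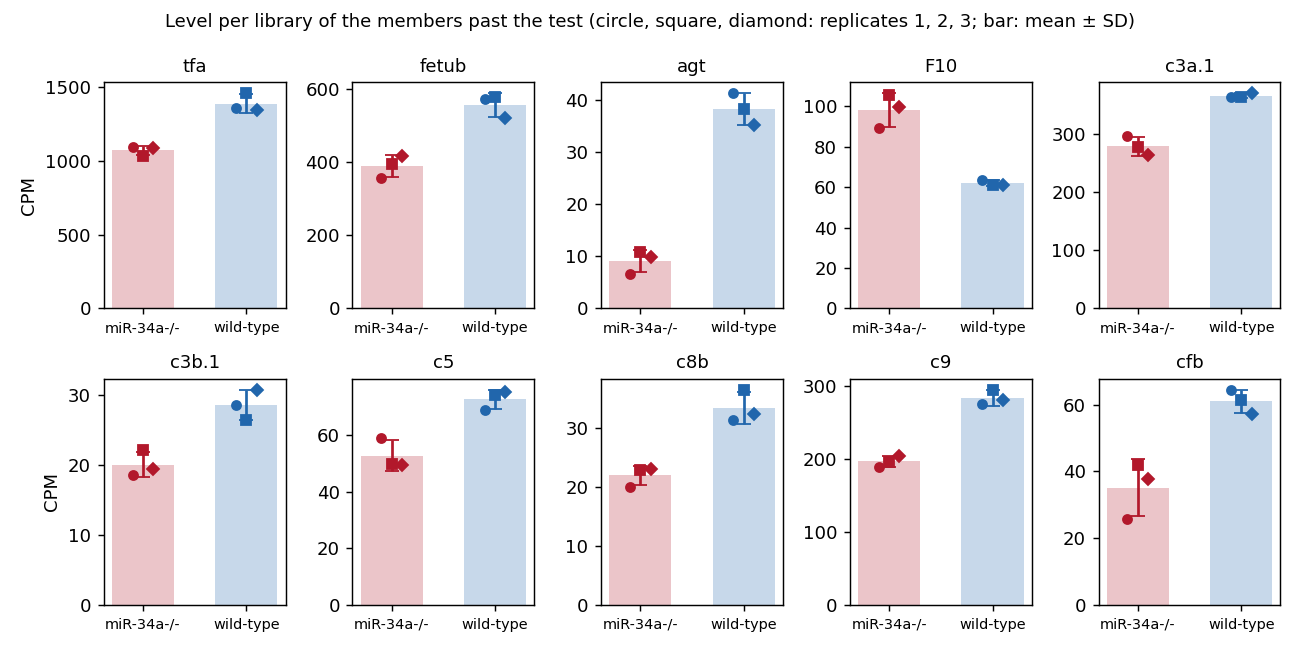
Level in CPM of the 10 plasma protein genes that passed the test, in each miR-34a-/- library (left) and each wild-type library (right). Points are libraries, bars are means and error bars are the SD of 3 libraries. F10 is higher in all 3 miR-34a-/- libraries and the other 9 genes are lower in all 3, with agt at 9.10 CPM in miR-34a-/- and 38.3 CPM in wild-type embryos.

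Among the carriers and inhibitors, 14 of 17 IDs were tested, and 3 passed the test, each of them lower in miR-34a-/- embryos. The largest difference of all tested IDs was that of agt (ENSDARG00000016412), angiotensinogen, from which renin releases the precursor of the blood pressure hormone angiotensin II. agt had 6.68, 10.8 and 9.86 CPM in miR-34a-/- and 41.4, 38.4 and 35.2 CPM in wild-type libraries. The groups were far from overlapping, at 9.10 ± 2.15 CPM in miR-34a-/- and 38.3 ± 3.05 CPM in wild-type embryos (SD, n = 3 each). agt was thus 4.21-fold lower in the mutants, with a log2 fold change of -2.07 ± 0.15 (SE) at an edgeR adjusted p = 0.00012.

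fetub (ENSDARG00000053973) encodes fetuin B, a cystatin-type protein that in mice inhibits the protease which hardens the egg coat. It had 357, 395 and 416 CPM in miR-34a-/- and 573, 579 and 520 CPM in wild-type libraries, so each mutant library was lower than each wild-type library. Its log2 fold change was -0.52 ± 0.08 (SE, adjusted p = 0.00753 by edgeR). tfa (ENSDARG00000016771), the iron carrier transferrin, had 1089, 1033 and 1082 CPM in miR-34a-/- and 1354, 1456 and 1342 CPM in wild-type libraries. The 3 mutant libraries differed among themselves by less than they differed from any wild-type library, and the log2 fold change was -0.37 ± 0.07 (SE, adjusted p = 0.0172 by edgeR). Each fit without 1 library holds only 5 libraries. The group had 6 passing IDs without miR-34a-/- replicate 1, where 15.6% of all genes tested passed. It had 1 each without wild-type replicates 1 and 2, where 1.03% and 1.02% passed. agt passed in all 6 such fits. fetub did not pass without wild-type replicate 1 (adjusted p = 0.0533) or 2 (0.0688). tfa did not pass without miR-34a-/- replicate 2 (adjusted p = 0.116) or wild-type replicate 1 (0.068), 2 (0.141) or 3 (0.0896), while its log2 fold change stayed between -0.34 and -0.40.

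The 11 other tested carriers and inhibitors did not pass. serpina1l and serpina1, neighbouring genes in the RefSeq order, are copies of the gene for alpha-1-antitrypsin, the inhibitor of neutrophil elastase. serpina1l had 126, 176 and 222 CPM in miR-34a-/- and 267, 256 and 244 CPM in wild-type libraries, for a log2 fold change of -0.55 ± 0.16 (SE) at an edgeR adjusted p = 0.131. serpina1 had 180, 187 and 180 CPM in miR-34a-/- and 169, 172 and 159 CPM in wild-type libraries, with a log2 fold change of 0.13 ± 0.07 (SE) at an edgeR adjusted p = 0.385. Both were free of overlap between genotypes, serpina1l with the mutants below and serpina1 with the mutants above. How reads that match several copies were counted is not given in the sources used here, so the split of counts between close copies such as these is uncertain. Without miR-34a-/- replicate 1, the lowest mutant library for serpina1l, that gene passed with a log2 fold change of -0.36 (edgeR adjusted p = 0.0104), and without miR-34a-/- replicate 3 with -0.76 (0.00818). Of all genes tested, 15.6% and 1.85% passed in these fits, in that order.

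RBP4, the plasma carrier of retinol, had 384, 473 and 519 CPM in miR-34a-/- and 541, 519 and 483 CPM in wild-type libraries, with mutant replicate 3 inside the wild-type range (log2 fold change -0.17 ± 0.10, edgeR adjusted p = 0.488). GC, the vitamin D binding protein, had 1.42, 6.94 and 5.61 CPM in miR-34a-/- and 2.42, 1.61 and 2.19 CPM in wild-type libraries. Replicates 2 and 3 of the mutants were above all wild-type libraries and replicate 1 below them. Its log2 fold change was 1.15 ± 0.46 (SE, adjusted p = 0.273 by edgeR). Without miR-34a-/- replicate 1, where 15.6% of all genes tested passed, it was 1.56 (adjusted p = 0.000323). hpxa, the heme carrier hemopexin, had a log2 fold change of 0.58 ± 0.36 (SE) at an edgeR adjusted p = 0.48 at levels below 5 CPM in each library. The remaining members of the group were ambp, CP, kng1, ITIH2, a2ml and fgl1, whose log2 fold changes lay between -0.22 and 0.01.

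**Figure D2:**
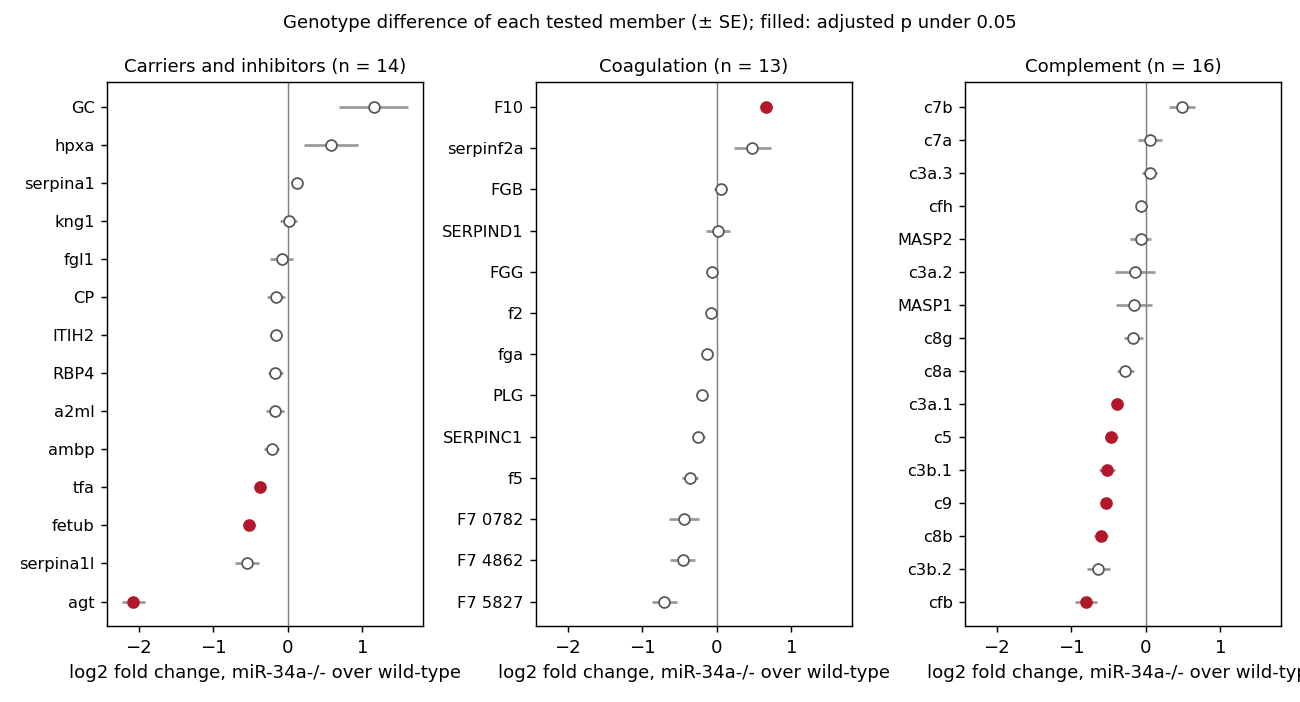
Log2 fold change of miR-34a-/- over wild-type for each of the 43 tested plasma protein IDs, in the 3 role groups. Points are the fitted values, lines are ± SE, and filled red points have an adjusted p below 0.05. The 3 filled points among carriers and inhibitors and the 6 in complement lie left of 0, and the 1 in coagulation, F10, lies right of it. The 3 IDs named F7 are told apart by their last 4 digits.

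In coagulation, 13 of 14 IDs were tested and 1 passed the test, in the opposite direction to the other 9. F10 (ENSDARG00000088581) encodes factor X, the protease that, with factor V, turns prothrombin into thrombin. It had 89.2, 106 and 99.5 CPM in miR-34a-/- and 63.5, 61.2 and 61.2 CPM in wild-type libraries. All 3 mutant libraries were well above the narrow range of the wild-type libraries. F10 averaged 98.2 ± 8.34 CPM in miR-34a-/- and 62.0 ± 1.37 CPM in wild-type embryos (SD, n = 3 each), which was 1.58-fold higher in the mutants (log2 fold change 0.66 ± 0.08 SE, edgeR adjusted p = 0.00171). It passed in each of the 6 fits that left out 1 library.

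The other procoagulant factors that were tested had lower fitted values in the mutants, and none of them passed. F7 encodes factor VII, which starts coagulation together with tissue factor. In the RefSeq order f7l, f7, f7i and f10 follow each other, and which of the 3 IDs named F7 corresponds to which of these genes is not given in the name table used. ENSDARG00000075827 had 5.70, 8.80 and 8.51 CPM in miR-34a-/- and 12.3, 12.1 and 13.2 CPM in wild-type libraries (log2 fold change -0.71 ± 0.17, edgeR adjusted p = 0.0649). ENSDARG00000034862 had 7.74, 11.4 and 11.9 CPM in miR-34a-/- and 15.2, 14.9 and 12.5 CPM in wild-type libraries (-0.46 ± 0.17, adjusted p = 0.234). ENSDARG00000100782 had 3.38, 2.93 and 3.93 CPM in miR-34a-/- and 5.15, 4.54 and 4.28 CPM in wild-type libraries (-0.44 ± 0.20, adjusted p = 0.33). For each of the 3 IDs every mutant library lay below every wild-type library, while F10 lay above in every one. Of all genes tested, 10.2% lay below and 11.0% above in this way. How reads that match several of these IDs were counted is not given. f5, the cofactor of factor X, was also without overlap, at 21.3, 21.4 and 18.6 CPM in miR-34a-/- and 27.2, 28.0 and 23.3 CPM in wild-type libraries (-0.36 ± 0.11, adjusted p = 0.135). f2, prothrombin, had 102.6, 100.2 and 105 CPM in miR-34a-/- and 109, 110.2 and 107.3 CPM in wild-type libraries, a log2 fold change of -0.08 ± 0.06 (edgeR adjusted p = 0.562).

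Fibrinogen, the substrate of the chain, is made of 3 kinds of chain, encoded by fga, FGB and FGG. None of these genes passed the test in edgeR or DESeq2 or had an unadjusted p below 0.05, and for each of them the libraries of the genotypes overlapped. Their log2 fold changes were -0.13 ± 0.07 for fga (edgeR adjusted p = 0.439), 0.05 ± 0.09 for FGB (0.84) and -0.07 ± 0.08 for FGG (0.717). The summed level of the 3 genes was 644.2 ± 46.75 CPM in miR-34a-/- and 669.4 ± 36.46 CPM in wild-type embryos (SD, n = 3 each). In all 3 genes miR-34a-/- replicate 1 was the lowest of the 6 libraries.

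Among the inhibitors of coagulation and the proteins of clot removal, 4 IDs were tested and none passed in edgeR or DESeq2, while 2 had an unadjusted p below 0.05. PLG, plasminogen, the precursor of plasmin, had 92.4, 79.4 and 80.4 CPM in miR-34a-/- and 95.7, 102.1 and 92.9 CPM in wild-type libraries. The highest mutant library was just under the lowest wild-type library, and the log2 fold change was -0.21 ± 0.08 (SE, adjusted p = 0.26 by edgeR). SERPINC1, antithrombin, which inhibits thrombin and factor X, had 46.5, 54.5 and 56.4 CPM in miR-34a-/- and 64.1, 61.1 and 61.6 CPM in wild-type libraries, also without overlap (-0.25 ± 0.08, edgeR adjusted p = 0.196). serpinf2a, an inhibitor of plasmin, had a log2 fold change of 0.47 ± 0.25 (SE) at an edgeR adjusted p = 0.402, and SERPIND1, heparin cofactor II, one of 0.02 ± 0.16 (adjusted p = 0.966). Without miR-34a-/- replicate 1, PLG passed with a log2 fold change of -0.28 (edgeR adjusted p = 0.0173), f5 with -0.40 (0.0247) and the F7 ID ENSDARG00000075827 with -0.54 (0.0163). Of all genes tested, 15.6% passed in that fit.

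Complement had 16 tested IDs of 17, and 6 of them, or 37.5%, passed the test, each lower in miR-34a-/- embryos. Of all genes tested, 1.27% passed in that direction. The members were chosen with earlier results of these data known, so these shares were not tested against each other. The 6 genes belong to 3 successive steps, with cfb in the alternative pathway, c3a.1 and c3b.1 at C3, and c5, c8b and c9 among the terminal components. Of the 16, 13 had a fitted value below 0, with a median log2 fold change of -0.22 and a range of -0.80 to 0.49. The median was -0.34 without miR-34a-/- replicate 2, and between -0.23 and -0.30 in the fits without another library. The number of passing complement IDs was 2 each without miR-34a-/- replicate 2 and wild-type replicate 1, where 1.22% and 1.03% of all genes tested passed. It was 1 each without wild-type replicates 2 and 3, where 1.02% and 0.975% passed. Without miR-34a-/- replicates 1 and 3 it was 8 and 4, where 15.6% and 1.85% passed.

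cfb (ENSDARG00000055278) encodes factor B, the protease that forms the convertase of the alternative pathway with C3b. It had 25.7, 42.0 and 37.8 CPM in miR-34a-/- and 64.3, 61.4 and 57.2 CPM in wild-type libraries. The mutants were lower throughout, with replicate 1 the lowest, and the mean was 35.2 ± 8.42 CPM in miR-34a-/- and 61.0 ± 3.56 CPM in wild-type embryos (SD, n = 3 each). cfb was 1.74-fold lower in the mutants (log2 fold change -0.80 ± 0.15 SE, edgeR adjusted p = 0.0212). It did not pass without wild-type replicate 1 (adjusted p = 0.118), 2 (0.11) or 3 (0.0782), where the log2 fold change ranged from -0.75 to -0.84.

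C3, the protein on which the routes converge, has several copies in zebrafish, of which 5 were tested. c3a.1 (ENSDARG00000012694) had 295, 276 and 263 CPM in miR-34a-/- and 362, 363 and 369 CPM in wild-type libraries. The wild-type libraries lay close to each other, all above the mutants, and the log2 fold change was -0.39 ± 0.07 (SE, adjusted p = 0.0145 by edgeR). c3b.1 (ENSDARG00000093068) had 18.6, 22.1 and 19.4 CPM in miR-34a-/- and 28.6, 26.5 and 30.8 CPM in wild-type libraries, again without overlap (-0.52 ± 0.10, edgeR adjusted p = 0.0294). Its neighbour in the RefSeq order, c3b.2, had 12.5, 14.7 and 9.35 CPM in miR-34a-/- and 18.7, 17.6 and 19.9 CPM in wild-type libraries, and did not pass (-0.64 ± 0.16, edgeR adjusted p = 0.0735). The neighbours c3a.2 and c3a.3 had log2 fold changes of -0.14 ± 0.27 (SE, adjusted p = 0.845) and 0.05 ± 0.10 (0.852), with overlapping libraries. Summed over the 5 copies, which makes the split of reads between copies matter less, C3 transcripts stood at 364.5, 362.2 and 342.3 CPM in miR-34a-/- and 453.4, 454.4 and 463.4 CPM in wild-type libraries. c3a.1 did not pass without miR-34a-/- replicate 2 (adjusted p = 0.089) or wild-type replicate 1 (0.068), 2 (0.0984) or 3 (0.104). c3b.1 did not pass without miR-34a-/- replicate 2 (adjusted p = 0.0534) or 3 (0.0665) or wild-type replicate 1 (0.121), 2 (0.0823) or 3 (0.165). c3b.2 passed without miR-34a-/- replicate 1 (-0.67, adjusted p = 0.00778), where 15.6% of all genes tested passed.

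Of the 7 tested terminal components, 3 passed, all lower in the mutants. c9 (ENSDARG00000016319) encodes the subunit that polymerises into the wall of the pore. It had 190, 197 and 205 CPM in miR-34a-/- and 275, 296 and 281 CPM in wild-type libraries, so that the gap between the genotypes was several times the range within either. Its mean was 197 ± 7.48 CPM in miR-34a-/- and 284 ± 10.5 CPM in wild-type embryos (SD, n = 3 each), with a log2 fold change of -0.53 ± 0.07 (SE) at an edgeR adjusted p = 0.00248. c9 passed in each of the 6 fits that left out 1 library. c8b (ENSDARG00000039517), the beta chain of C8, which inserts into the membrane before C9, had 20.1, 22.9 and 23.1 CPM in miR-34a-/- and 31.4, 36.6 and 32.5 CPM in wild-type libraries (-0.60 ± 0.10, edgeR adjusted p = 0.0111). c5 (ENSDARG00000021004), whose cutting starts the terminal assembly, had 59.0, 49.9 and 49.4 CPM in miR-34a-/- and 68.8, 74.1 and 75.2 CPM in wild-type libraries (-0.46 ± 0.09, edgeR adjusted p = 0.0224). Neither gene showed overlap between genotypes. c8b did not pass without miR-34a-/- replicate 2 (adjusted p = 0.0502) or wild-type replicate 2 (0.0795) or 3 (0.06). c5 did not pass without miR-34a-/- replicate 2 (adjusted p = 0.119) or 3 (0.0546) or wild-type replicate 1 (0.0659), 2 (0.127) or 3 (0.132).

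The other terminal components had fitted values on both sides of 0. c8a, which neighbours c8b, had a log2 fold change of -0.27 ± 0.12 (SE) at an edgeR adjusted p = 0.315 and c8g, the third chain of C8, one of -0.17 ± 0.12 (adjusted p = 0.563). c7b had 5.70, 5.97 and 6.32 CPM in miR-34a-/- and 3.91, 4.17 and 4.85 CPM in wild-type libraries, the mutants being higher in all 3 without passing the test (0.49 ± 0.17, edgeR adjusted p = 0.211), and c7a was at 0.06 ± 0.16 (adjusted p = 0.893). Summed, the 7 genes stood at 337.1 ± 8.453 CPM in miR-34a-/- and 462.4 ± 16.02 CPM in wild-type embryos (SD, n = 3 each).

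The remaining complement genes act in activation and control. cfh, factor H, which restrains the alternative pathway in plasma, had 94.9, 92.6 and 100.6 CPM in miR-34a-/- and 100.2, 98.0 and 103.1 CPM in wild-type libraries, a log2 fold change of -0.06 ± 0.07 (SE) at an edgeR adjusted p = 0.697. MASP1 and MASP2, the proteases of the lectin route, had log2 fold changes of -0.15 ± 0.24 (adjusted p = 0.805) and -0.07 ± 0.14 (0.859). MASP1 had 16.9, 8.02 and 9.67 CPM in miR-34a-/- and 11.3, 14.0 and 13.3 CPM in wild-type libraries. Replicate 1 of the mutants was the highest of the 6 libraries and replicates 2 and 3 the lowest. Without replicate 1, where 15.6% of all genes tested passed, MASP1 passed with a log2 fold change of -0.51 (edgeR adjusted p = 0.0321).

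The levels were then summed within each group. Over the 17 complement IDs the sum was 841.1, 854.2 and 849.4 CPM in miR-34a-/- and 1095, 1121 and 1102 CPM in wild-type libraries, a ratio of 0.767. Over the 17 carriers and inhibitors it was 2623, 2814 and 2929 CPM in miR-34a-/- and 3521, 3590 and 3328 CPM in wild-type libraries, a ratio of 0.802. The genotypes did not overlap in either sum. Over the 14 coagulation IDs the sum was 971.8, 1050 and 1082 CPM in miR-34a-/- and 1100, 1085 and 1015 CPM in wild-type libraries, and the ratio was 0.97 with overlap. The 48 IDs together took 0.457% of the counts in miR-34a-/- and 0.575% in wild-type embryos. These sums are weighted to the genes with the most counts and carry no test.

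**Figure D3:**
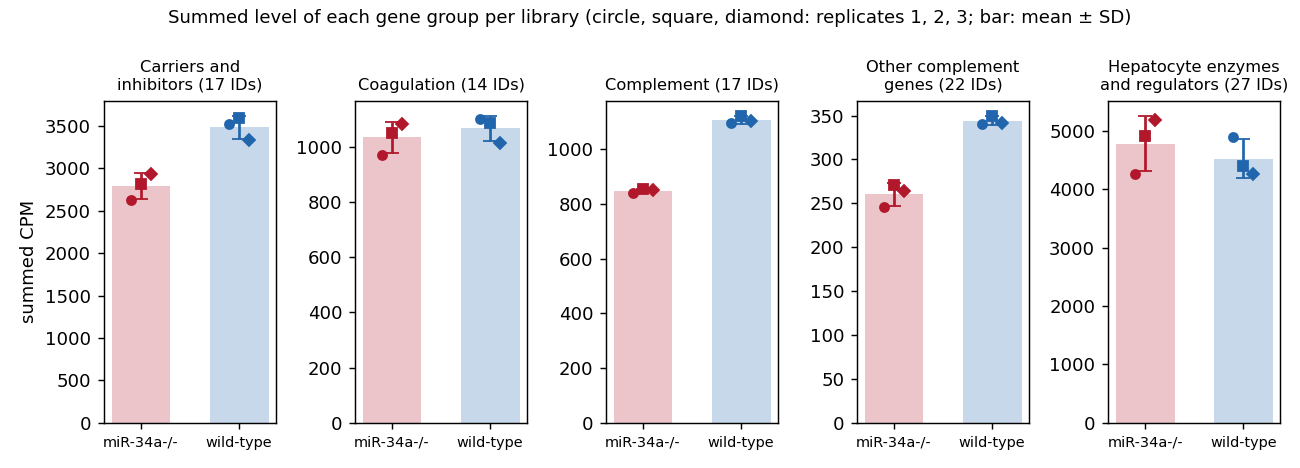
Summed CPM of the 3 plasma protein groups, of other complement genes, and of hepatocyte enzymes and regulators, in each miR-34a-/- library (left) and each wild-type library (right). Points are libraries, bars are means and error bars are the SD of 3 libraries. The libraries do not overlap for carriers and inhibitors, complement and other complement genes, and overlap for coagulation and for hepatocyte enzymes and regulators.

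Complement genes outside the list were read next, 27 symbols of which 22 matched an ID and 15 were tested. Of these, 6 passed lower in miR-34a-/- embryos and 1 higher, beside 1.27% and 1.33% of all genes tested. The median log2 fold change of the 15 was -0.32. This list too was chosen with earlier results of these data known. The count of 7 became 4, all lower, without wild-type replicate 1 and without wild-type replicate 3. Of all genes tested, 1.03% and 0.975% passed in these fits. c4b, a copy of C4, which the classical and lectin routes cut, had 24.8, 26.5 and 28.3 CPM in miR-34a-/- and 48.7, 49.6 and 52.1 CPM in wild-type libraries (log2 fold change -0.91 ± 0.08 SE, edgeR adjusted p = 0.000304). cfd, factor D, the protease that activates factor B, had 15.9, 20.1 and 18.8 CPM in miR-34a-/- and 37.4, 35.7 and 32.5 CPM in wild-type libraries (-0.95 ± 0.11, adjusted p = 0.00131). For both genes the mutant libraries were far below the wild-type libraries. serping1, the C1 inhibitor, which holds back the classical and lectin proteases, had 8.72, 7.73 and 5.67 CPM in miR-34a-/- and 16.5, 15.1 and 17.7 CPM in wild-type libraries (-1.17 ± 0.17, adjusted p = 0.00495).

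3 of the factor H-like genes, cfhl1, cfhl2 and cfhl4, also fell in the mutants. cfhl2 had 2.94, 3.23 and 2.13 CPM in miR-34a-/- and 8.00, 8.61 and 12.3 CPM in wild-type libraries, for a log2 fold change of -1.81 ± 0.23 (SE) at an edgeR adjusted p = 0.00306. cfhl1 was at -0.99 ± 0.18 (adjusted p = 0.0177) and cfhl4 at -0.41 ± 0.07 (0.0105). These genes are similar copies, so reads may be split between them. The list thus held lowered genes of activation (c4b, cfd) as well as of restraint (serping1). c4b, cfd, serping1 and cfhl2 passed in each fit that left out 1 library. cfhl1 did not pass without miR-34a-/- replicate 2 (adjusted p = 0.0932) or wild-type replicate 1 (0.0818), 2 (0.108) or 3 (0.0901), and cfhl4 not without wild-type replicate 1 (0.0516), 2 (0.0877) or 3 (0.0594).

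cfp, properdin, which stabilises the convertase of the alternative pathway and in mammals is made mainly by leukocytes, was the 1 complement gene that rose in this list. It had 32.8, 35.0 and 36.4 CPM in miR-34a-/- and 21.1, 25.5 and 23.8 CPM in wild-type libraries (log2 fold change 0.57 ± 0.10 SE, edgeR adjusted p = 0.0126). It did not pass without miR-34a-/- replicate 2 (adjusted p = 0.0668) or wild-type replicate 1 (0.0688) or 3 (0.0747). The 4 macrophage marker IDs, none of which passed in edgeR or DESeq2 and 1 of which had an unadjusted p below 0.05, summed to 24.7, 24.4 and 22.0 CPM in miR-34a-/- and 18.8, 16.9 and 20.2 CPM in wild-type libraries. LCP1 had the largest rise, from a mean of 8.25 to 12.4 CPM (0.59 ± 0.14, edgeR adjusted p = 0.0538). The study calls it a general leukocyte marker and reports it as higher in the mutants, from these same libraries. That report is therefore not separate evidence of a rise. In the study's quantitative PCR on independent pools, hemoglobin genes were again higher. A rise of the remaining markers of mature blood cells was not borne out there. The study's text does not name LCP1 among the genes measured by quantitative PCR. Of the 4 IDs, 3 had fitted values above 0, csf1ra among them (0.32 ± 0.26, edgeR adjusted p = 0.603), and marco lay below (-0.46 ± 0.23, adjusted p = 0.384). LCP1 is thus not particular to macrophages. It held a mean of 12.4 CPM of the mean sum of 23.66 CPM in miR-34a-/- embryos, and 8.25 of 18.64 CPM in wild-type embryos. The part of the macrophage markers in the result was not tested. The recognition molecules of the lectin route were not among the genes that passed, with log2 fold changes of 1.36 ± 0.50 for mbl2 (edgeR adjusted p = 0.225) and -1.27 ± 0.41 for hbl2 (adjusted p = 0.17), both near the detection limit. Without miR-34a-/- replicate 1, where 15.6% of all genes tested passed, CLU, clusterin, passed at 0.42 (edgeR adjusted p = 0.00825). mbl2 passed there at 1.77 (edgeR adjusted p = 0.00138), with 28 and 49 counts in miR-34a-/- replicates 2 and 3. The wild-type libraries had 11, 12 and 9 counts, which did not all reach the filter's level. mbl2 was thus tested in that fit only through the genotype where it is high, and no difference is read from its call. c1qa, c1qb, c1qc, c1r, c5ar1, C3AR1 and cfhl3 had too few counts to be tested.

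**Figure D4:**
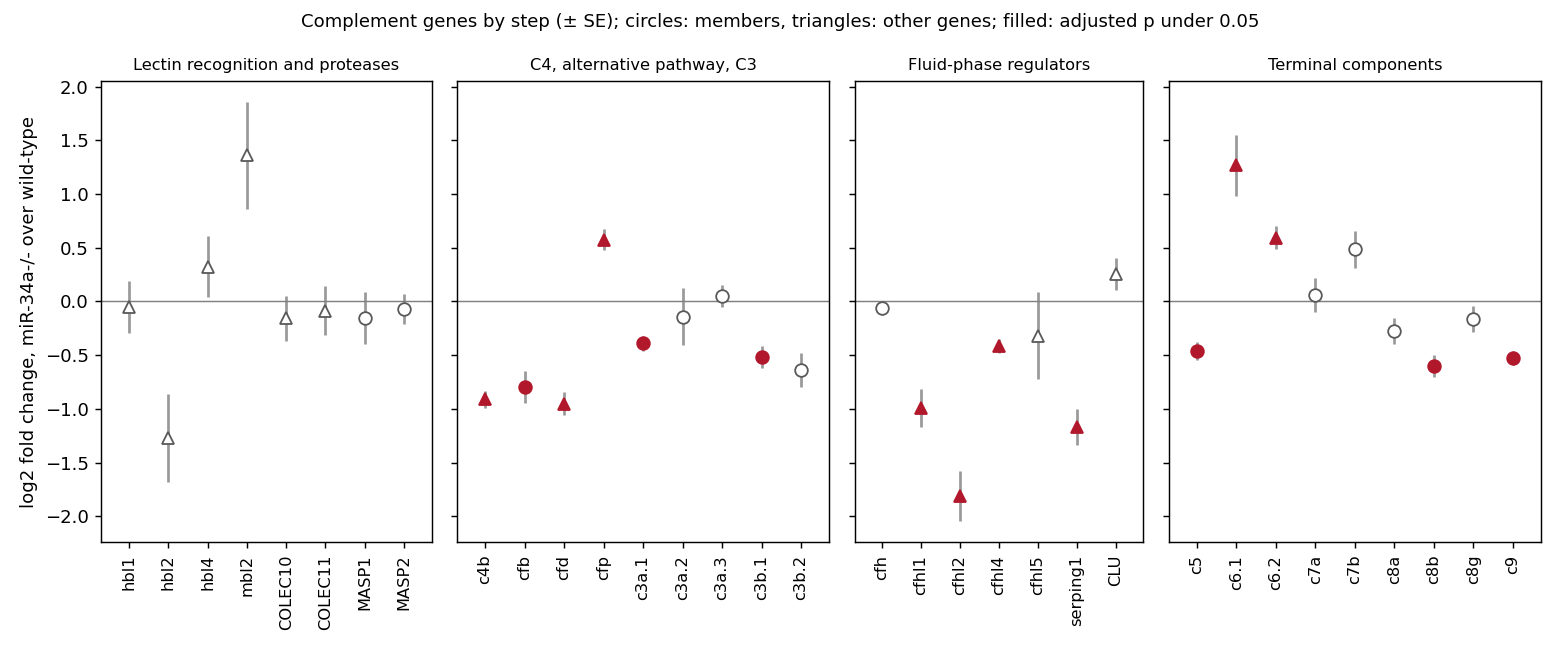
Log2 fold change of miR-34a-/- over wild-type for complement genes, ordered by step from recognition to the terminal pore. Circles are listed plasma protein genes, triangles are other complement genes, lines are ± SE, and filled red symbols have an adjusted p below 0.05. Filled symbols below 0 stand at the C4, alternative and C3 step, among the fluid-phase regulators and among the terminal components. The filled symbols above 0 are cfp, c6.1 and c6.2, of which c6.1 was tested only through the miR-34a-/- libraries, where it is high.

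For several of the unmatched symbols, 11 IDs with nearby names were found after the names in the table had been seen, and they are given apart from the list. Of these 11, 3 passed the test, beside 2.60% of all genes tested. itih3a.1, a heavy chain of inter-alpha-trypsin inhibitor, a protein that is linked to hyaluronan, had 10.4, 11.2 and 9.86 CPM in miR-34a-/- and 20.1, 20.6 and 23.6 CPM in wild-type libraries (log2 fold change -1.03 ± 0.12 SE, edgeR adjusted p = 0.00119), and passed in each fit that left out 1 library. c6.1 and c6.2, copies of the terminal component C6, were higher in the mutants. c6.2 had 18.7, 19.0 and 17.1 CPM in miR-34a-/- and 12.2, 12.5 and 11.5 CPM in wild-type libraries (0.59 ± 0.11, edgeR adjusted p = 0.0193), and c6.1 had 2.40, 1.76 and 2.06 CPM in miR-34a-/- and 0.868, 0.757 and 0.950 CPM in wild-type libraries (1.27 ± 0.28, adjusted p = 0.047). c6.1 reached the filter's level in all 3 miR-34a-/- libraries but not in all 3 wild-type libraries, which had 14, 8 and 10 counts. It was thus tested only through the genotype where it is high, and no difference is read from its call. c6.2 lay on the other side of 0 from c5, c8b and c9. c6.2 did not pass without miR-34a-/- replicate 2 (adjusted p = 0.102) or wild-type replicate 1 (0.0837), 2 (0.0884) or 3 (0.111), and of these fits c6.1 passed in the one without miR-34a-/- replicate 1, with adjusted p = 0.104 to 0.211 in the other 5. It did not pass the DESeq2 Wald test (adjusted p = 0.204). The other 8, namely itih3a.2, itih3b.1, itih3b.2, the 2 IDs named VTN, F9 and the 2 IDs named PROC, had log2 fold changes between -0.42 and 0.46 and did not pass.

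Hepatocyte enzymes and transcription factors, genes that the same cells use, had fitted values above 0 more often than below. Of 27 matched IDs 25 were tested, 17 of them above 0 and 8 below, and the median log2 fold change was 0.18. The 7 liver markers used above as a check are among the 27, so the readings are not separate. Of all genes tested, 51.9% lay below 0. The 1 gene that passed made up 4% of the 25, beside 2.60% of all genes tested. This gene was TAT, tyrosine aminotransferase, which had 9.35, 8.41 and 10.3 CPM in miR-34a-/- and 5.21, 5.77 and 6.27 CPM in wild-type libraries (0.71 ± 0.15, edgeR adjusted p = 0.0419). It did not pass without miR-34a-/- replicate 2 (adjusted p = 0.0946) or 3 (0.105) or wild-type replicate 1 (0.183), 2 (0.173) or 3 (0.127), nor in the DESeq2 Wald test (0.0616). Without miR-34a-/- replicate 1, 10 of these genes passed, 9 higher and 1 lower in miR-34a-/- embryos, where 15.6% of all genes tested passed. HNF4A, a nuclear receptor that activates many hepatocyte genes, had 15.0, 17.6 and 14.2 CPM in miR-34a-/- and 13.6, 13.8 and 13.4 CPM in wild-type libraries (0.19 ± 0.12, adjusted p = 0.476). The summed level of the 27 IDs was 4259, 4903 and 5183 CPM in miR-34a-/- and 4898, 4396 and 4267 CPM in wild-type libraries, a ratio of 1.06 with overlap. The difference between this list and the plasma protein genes was not tested.

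Coagulation genes outside the list numbered 22 matched IDs, of which 20 were tested with a median log2 fold change of 0.05. The share of the 20 that passed was 5%, beside 2.60% of all genes tested. SERPINE2, an inhibitor of thrombin made in many tissues, was the 1 that passed, at 34.9, 37.0 and 35.9 CPM in miR-34a-/- and 27.2, 28.5 and 26.8 CPM in wild-type libraries (0.38 ± 0.08, edgeR adjusted p = 0.0319). In the fits that left out 1 library, it kept its call only without miR-34a-/- replicate 1, with adjusted p = 0.0641 to 0.173 in the others, and it did not pass the DESeq2 Wald test (adjusted p = 0.0595). Without miR-34a-/- replicate 1, 4 genes of this list passed, 3 higher and 1 lower, where 15.6% of all genes tested passed. Acute-phase response genes, which the liver and other tissues switch on in inflammation, gave 11 tested IDs, of which none passed in edgeR, 5 had an unadjusted p below 0.05, and 1 passed the DESeq2 Wald test. The shares of all genes for these last counts are not given, so neither is read as an excess. The gene that passed in DESeq2 was nfkbiaa, an inhibitor of NF-kappaB, with 10.2, 22.9 and 25.3 CPM in miR-34a-/- and 9.11, 8.80 and 9.22 CPM in wild-type libraries (edgeR log2 fold change 1.11, adjusted p = 0.0785; DESeq2 adjusted p = 0.00108). Their sum was 281.6, 427.4 and 478 CPM in miR-34a-/- and 308.1, 280 and 279.9 CPM in wild-type libraries, so that replicates 2 and 3 of the mutants were above all wild-type libraries and replicate 1 was not. The largest levels were those of CEBPD, at means of 135.3 CPM in miR-34a-/- and 81.5 CPM in wild-type embryos, and CEBPB, at 82.4 and 55.1 CPM. Of the 11, 9 had fitted values above 0 and 2 below, whereas 51.9% of all genes tested lay below 0. hamp was lower in the mutants without overlap and did not pass (-0.59 ± 0.16, edgeR adjusted p = 0.1). Without miR-34a-/- replicate 1, 6 acute-phase genes passed in edgeR, 5 higher and 1 lower in miR-34a-/- embryos. Of all genes tested, 7.09% passed higher and 8.46% lower in that fit. With all libraries but no filter on low counts, 1 acute-phase gene passed.

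Markers of other cell types of the embryo were read beside these results. None of the 3 tested thrombocyte marker IDs passed in edgeR or DESeq2 or had an unadjusted p below 0.05, and the 5 matched IDs summed to 5.43, 5.18 and 6.06 CPM in miR-34a-/- and 3.78, 3.88 and 3.33 CPM in wild-type libraries. Hepatic endothelial and biliary markers, 5 IDs with none passing in either tool and 2 with an unadjusted p below 0.05, summed to 408.2, 425.7 and 467.3 CPM in miR-34a-/- and 398.7, 373.1 and 369.2 CPM in wild-type libraries. Both sums were higher in the mutants. In the second, krt18a.1 and ANXA4 held most of the counts, and the endothelial genes stab1 and stab2 had log2 fold changes of -0.05 ± 0.13 (edgeR adjusted p = 0.901) and -0.03 ± 0.12 (0.941). Exocrine pancreas markers, 12 IDs with 6 tested, none passing in either tool and none with an unadjusted p below 0.05, summed to 21.0 to 58.5 CPM in miR-34a-/- and 31.1 to 53.3 CPM in wild-type libraries, with 2 IDs at 0 throughout. Of the 8 enterocyte marker IDs, 1 passed in edgeR, 2 passed in the DESeq2 Wald test, and 3 had an unadjusted p below 0.05. Of all genes tested, 2.60% passed in edgeR. The 8 IDs summed to 637.7, 708 and 725.9 CPM in miR-34a-/- and 852, 805 and 787.3 CPM in wild-type libraries. Among them FABP2, the intestinal fatty acid binding protein, fell, with 47.1, 62.6 and 64.7 CPM in miR-34a-/- and 98.5, 98.9 and 85.6 CPM in wild-type libraries (log2 fold change -0.70 ± 0.12, edgeR adjusted p = 0.0126). It did not pass without wild-type replicate 1 (adjusted p = 0.0818) or 2 (0.0868). Most counts of the enterocyte sum came from apoa4b.1, with 475.2, 505.8 and 520.5 CPM in miR-34a-/- and 627.1, 593.9 and 587.6 CPM in wild-type libraries (-0.27 ± 0.07, edgeR adjusted p = 0.0764). The other way, 5 of the 8 enterocyte markers, VIL1, CDH17, apoa4a, cdx1b and TM4SF4, had fitted values above 0 without passing, and the median of the 8 was 0.11. The part of enterocyte RNA in the results on carriers and complement was not tested.

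The number of passing plasma protein IDs changed with the libraries in the fit. Among the 43 tested IDs, miR-34a-/- replicate 1, the library that stood apart, held the lowest of the 3 mutant values for 26 and the highest for 8. Without it, 18 of the tested plasma protein IDs passed, 16 lower and 2 higher in miR-34a-/- embryos, where 15.6% of all genes tested passed, 8.46% lower and 7.09% higher. The 10 that passed with all libraries were among the 18, and the others were serpina1l, GC, a2ml, f5, the F7 ID ENSDARG00000075827, PLG, c3b.2 and MASP1. Without miR-34a-/- replicate 2 the count was 5 and 1.22% of all genes tested passed, and without replicate 3 it was 9 and 1.85%. Without wild-type replicate 1 the count was 4 and 1.03% of all genes passed, without replicate 2 it was 3 and 1.02%, and without replicate 3 it was 4 and 0.975%. agt, F10 and c9 passed in every one of these fits.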

How the data were processed

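Poly-A RNA of whole zebrafish embryos at 72 hpf was sequenced in 3 miR-34a-/- and 3 wild-type libraries. A single table of whole-number counts, 1 row for each Ensembl gene and unnormalized, was deposited by the authors. The submitters' processing notes name Trim Galore 0.4.4, STAR 2.7.8 and the danRer11 build. The counting mode, use of strand and treatment of reads with several matches are not given in the sources used here, so counts of close copies, of overlapping genes and of antisense pairs are uncertain.

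Symbols came from a table of gene names, which named 29201 of 32520 IDs. Neighbouring genes were read from the gene order of RefSeq GRCz12tu, an assembly other than that of the counts. The analysis used edgeR 4.0.16 and limma 3.58.1 under R 4.3.3. Low counts were removed with filterByExpr, leaving 19240 genes, TMM factors scaled each library, and glmQLFTest compared the genotypes without a covariate, on all 6 libraries. The SE of a log2 fold change was taken from the fitted value and its F statistic. Benjamini-Hochberg adjustment ran over all genes tested, and "called" adds a fold above 1.5. Replicate pairs differed beyond sampling noise (chi-square per degree of freedom at least 1.78), so each library counted as 1 replicate. The floor of 3 counts covers counting error only. The pipeline was tested on simulated data.

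The members and gene lists were chosen with earlier results of these data known. Genes named individually were those that passed, the 5 with the highest mean CPM and the 3 with the largest absolute log2 fold change in each role group, and each untested, unmatched or multiply matched member. Other genes named, those of other lists included, were chosen after their values were seen. Alternatives were DESeq2 1.42.0 size factors and its Wald test, TMM without the members, no filter, a mean count of at least 50, a block for the replicate number, and omission of each library. Promoter motifs and protein identities were planned and not analysed here, and 1 gene of the liver lists is not reported here.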

Additional observations from a re-analysis of the deposited data

How the results depend on the processing

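With DESeq2 size factors, or TMM without the members, the same 10 plasma protein IDs passed, and the median log2 fold change of all genes stayed between -0.01 and 0 in each setting. The DESeq2 Wald test and the edgeR fit without a filter each gave 13, the added ones being serpina1l, the F7 ID ENSDARG00000075827 and c3b.2, so that coagulation had 2 instead of 1. Without the filter the complement median was -0.163, against -0.219. All genes called, with the 1.5-fold threshold, numbered 362 of 19240. They numbered 371 of 19240 with the DESeq2 Wald test and 523 of 26510 without the filter. With a mean count of at least 50 they numbered 217 of 14933, and with the replicate block 216 of 19240. The share of all genes that passed without the fold threshold is not given for these settings, so the change in passing members is not read against it. Deviations from the group means correlated at -0.0667, 0.00124 and -0.179 for same-numbered libraries. With so few libraries this does not settle whether replicate numbers pair the samples. Under the replicate block 6 members passed, 3 of them complement genes, and 5 genes of the other pathway lists instead of 9.

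Leaving out 1 library gave 180 to 1504 genes called (1504 without miR-34a-/- replicate 1), 3 to 18 members passing, 1 to 6 carriers and inhibitors, 1 to 4 coagulation IDs, 1 to 8 complement IDs, 2 to 5 members called at 1.5-fold, 4 to 29 genes of the other pathway lists, and complement medians of -0.344 to -0.228. The fitted value of FGB ranged from -0.024 to 0.126, below 0 only without miR-34a-/- replicate 3 (edgeR adjusted p = 0.955). The fitted values of 8 other IDs near 0 (c3a.2, c3a.3, c7a, MASP1, MASP2, fgl1, SERPIND1 and kng1) also changed sign without some library, each with an edgeR adjusted p of at least 0.723 there. The cause was not tested, beyond the fewer libraries each such fit holds. agt, F10 and c9 passed in all 12 alternatives, cfb and c8b in 9, and c5 and c3b.1 in 6.

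Pools from 1 mutant line were compared with wild types that were not their siblings at 1 stage, so line, pool and genotype cannot be told apart. Members below about 1 CPM could not be tested at this depth, and whole-embryo RNA does not say which cells made a transcript.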
